A study of Oryctolagus cuniculus with 17 samples.

Results

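The genes described here are cell cycle genes of S phase and of mitosis, followed in the lungs of preterm rabbit pups under hyperoxia and normoxia. They were chosen as the entries of the deposited count table whose human gene name is on a list of 50 symbols, 24 of S phase and 26 of mitosis. Where a symbol had several entries, the one with the highest total count was kept. The table held 45 of the 50 symbols, 21 of S phase and 24 of mitosis, among 13827 entries in all, and all 45 members were among the 13142 entries tested. MCM6, E2F1, CCND1, CENPF and CDC20 were not among the names in the table and are not analysed here.

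Pups of New Zealand White rabbits, delivered at a gestational age of 28 days, breathed 95% oxygen (HT) or 21% oxygen (NT) until postnatal day 3, 5 or 7. RNA of the right lung, as a whole tissue, was sequenced in 17 libraries, 3 per group for HT3, HT7, NT3, NT5 and NT7 and 2 for HT5. The labels and the study's methods name the right lung, while its results section names the left. All pups, the normoxia controls included, were preterm, so no group stands for birth at term. The labels number the libraries of a group without naming animals or litters, so the p-values measure the spread between these samples, which may in part be technical.

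Before a cell copies its DNA, cyclin D and cyclin E kinases release E2F factors from the RB proteins, and E2F switches on the genes of S phase. These encode the MCM helicase and the proteins that load and start it, the sliding clamp PCNA, DNA polymerases and the enzymes that make deoxynucleotides. The genes of mitosis follow later, driven by MYBL2 and FOXM1, and encode CDK1 and its cyclins, the Aurora and Polo kinases, the spindle motors and the checkpoint proteins. Both sets are held down in arrested cells by the DREAM complex, which the CDK inhibitor p21 (CDKN1A) promotes. In the growing lung, dividing cells occur in the epithelium, the endothelium and the mesenchyme. A whole-lung library does not tell fewer dividing cells from less of this RNA per cell.

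Read depth was similar throughout, with 13123731 to 18111086 counts per library when each locus is counted once and TMM factors (edgeR's scaling between libraries) from 0.958 to 1.05. Of the 45 members, 44 had at least 10 counts in every library and 22 had at least 100, and the lowest count was 9, for BIRC5. Levels are given as CPM, counts scaled to a common library total with the TMM factors. Changes are log2 fold changes (log2FC) of hyperoxia over normoxia with their standard errors (SE) and the Benjamini-Hochberg adjusted p-value of edgeR's quasi-likelihood test over all genes tested. A gene counts as a DEG by the rule of the study's methods, an absolute log2FC over 2 together with an adjusted p below 0.01. A gene is said to rise or fall where its adjusted p was under 0.05. Alveolar type 2 markers were abundant in every library, with SFTPC from 4033 to 12324 CPM, so the tissue label held.

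Across the 6 groups, NT5 stood highest and HT3 lowest. The NT5 mean was the highest of the 6 for all 24 mitotic members and for 18 of the 21 S-phase members, and the HT3 mean was the lowest for 21 and 16 of them. To give each library 1 value per set, the log2 CPM of every member was set against the mean of the 6 group means and the median over the members was taken. For the mitotic members this level was -0.33, -0.63 and -0.25 in NT3, 1.502, 1.23 and 1.16 in NT5 and -0.63, 0.56 and 1.21 in NT7. In hyperoxia it was -1.25, -1.02 and -1.17 in HT3, 0.44 and -0.95 in HT5 and -0.30, 0.84 and 0.04 in HT7. The 3 NT5 libraries lay close together, within a 1.27-fold range, while the NT7 libraries spanned 3.60-fold and the 2 HT5 libraries 2.61-fold.

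For the S-phase members NT5 was again the highest group and HT3 the lowest, with smaller distances. Their level was -0.14, -0.41 and 0.07 in NT3, 0.94, 0.76 and 0.71 in NT5 and -0.54, -0.14 and 0.61 in NT7. In hyperoxia the values were -0.43, -0.92 and -0.44 in HT3, 0.47 and -0.65 in HT5 and -0.14, 0.57 and -0.10 in HT7. HT5 library 1, HT7 library 2 and NT7 library 3 were the high ones of their groups on both sets, and HT5 library 2 and NT7 library 1 were low on both.

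**Figure D1:**
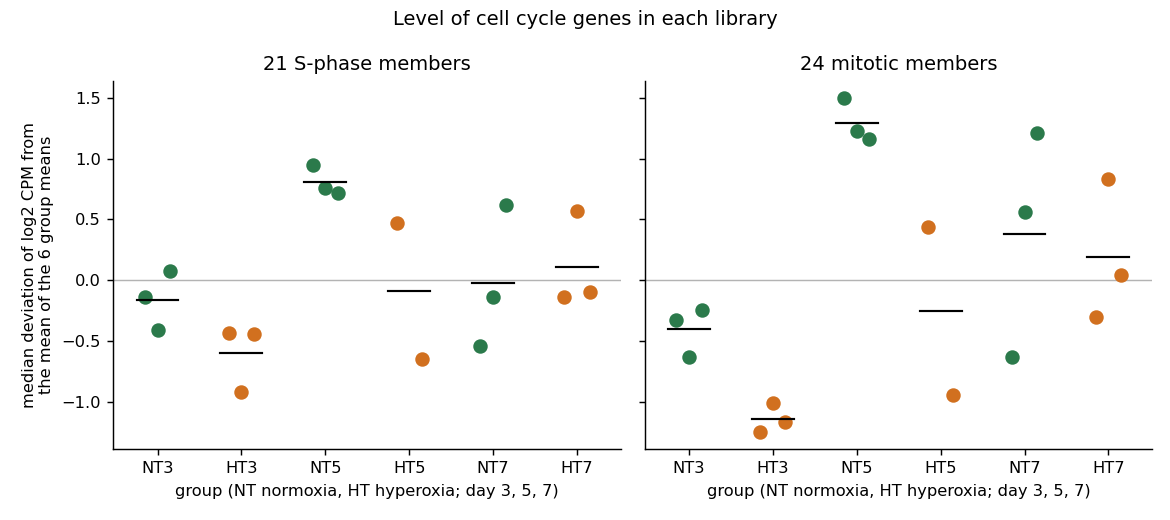
Level of the 21 S-phase and the 24 mitotic members in each library, as the median deviation of log2 CPM from the mean of the 6 group means (y axis), by group (x axis), with normoxia in green, hyperoxia in orange and a black line at the mean of each group. The 3 NT5 libraries are the highest group in both panels, and the 3 HT3 libraries are the lowest group for mitosis, between -1.25 and -1.02.

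On day 3 no member passed either rule. The median log2FC was -0.59 over the S-phase members, of which 17 of 21 lay below 0, and -0.75 over the mitotic members, of which 22 of 24 lay below 0, against 0.00 over all genes tested. In 8 S-phase and 18 mitotic members all 3 HT3 libraries were below all 3 NT3 libraries, while 13.9% of all genes tested showed this separation. Few genes of any kind passed on this day: 0.517% of all genes fell and 0.0533% were DEGs. At an unadjusted p under 0.05 there were 3 S-phase and 6 mitotic members, 9 of 45, and 15.3% of all genes. DESeq2 (its Wald test) called 1 mitotic member at an adjusted p under 0.05, UBE2C, where it called 4.05% of all genes. A fit to HT3 and NT3 alone called 2 S-phase and 5 mitotic members, all lower, among them RRM2, TK1, MKI67, CCNB1, UBE2C and KIF23, where 1.31% of all genes were called lower in that fit.

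On day 5 the mitotic genes were lower in hyperoxia as a set. Of the 24 members 16 fell and none rose, where 15.4% of all genes tested fell and 15.9% rose. The median log2FC was -1.40 (2.65-fold lower) against -0.02 over all genes, with members from -1.93 for BIRC5 to -0.90 for CCNA2. In all 24 both HT5 libraries lay below all 3 NT5 libraries, which held for 29.2% of all genes. Of the 21 S-phase members 3 fell (CDC45, MCM5 and CCND2) and 1 rose (TYMS), and their median log2FC was -0.83. In 14 of them HT5 lay below NT5 throughout. No member was a DEG, where 1.58% of all genes were.

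These day 5 counts turned on single libraries. Without HT5 library 1 the calls were 23 mitotic members, all lower, and 13 S-phase members lower and 1 higher, where 15.8% of all genes were called lower and 16.2% higher. Of these, 7 mitotic and 1 S-phase member were DEGs, where 2.81% of all genes were, and the median log2FC was -2.41 and -1.62. Without HT5 library 2 no member was called, where 4.45% of all genes were called lower and 4.2% higher, and the medians were -0.88 and -0.29. In both fits the remaining HT5 library was assumed to vary like the other groups. HT5 library 1 held 375 CPM of summed skeletal muscle markers and 33083 CPM of summed alveolar type 2 markers, against 57.8 and 12624 in HT5 library 2, and the part of these in the result was not tested. A fit to HT5 and NT5 alone called 1 S-phase member lower and 1 higher and 9 mitotic members lower, where 9.63% of all genes were called lower and 9.37% higher in that fit, and it lost the calls of CDC45, MCM5, CCND2, MKI67, BIRC5, CCNB1, UBE2C, KIF23, AURKA and BUB1. DESeq2 called 23 mitotic members, all lower, and 7 S-phase members lower and 1 higher, where it called 17.9% of all genes lower and 18.2% higher. Leaving out NT5 library 1, 2 or 3 gave 6, 8 and 10 mitotic calls, all lower, where 14.3%, 11.4% and 11.9% of all genes were called lower. The same 3 omissions gave 2, 1 and 2 S-phase calls, and without NT5 library 2 the only one was the rise of TYMS.

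On day 7 few members were called. Among the mitotic members only CCNA2 fell, an entry that shares its counts with another gene, and the median log2FC was -0.30. Among the S-phase members CCND2 fell and PCNA, RRM1 and TYMS rose, with a median log2FC of 0.00. On this day 23.7% of all genes tested fell and 23.7% rose, and 4.59% were DEGs, none of them a member. HT7 lay below NT7 throughout in 1 member of each set, where 27.2% of all genes did. Leaving out HT7 library 2 gave 2 falls and 1 rise among the S-phase members and 3 mitotic calls. Without NT7 library 1 there were 3 mitotic and 2 S-phase calls, and without NT7 library 2 there were 2 S-phase calls. In these 3 fits 20.1% to 24.9% of all genes were called lower and 19.4% to 25.4% higher. Without NT7 library 3, the highest of its group, the S-phase median moved to 0.54 and 6 S-phase members were called, 1 lower and 5 higher, where 21.0% of all genes were called lower and 20.6% higher. The mitotic median moved from -0.66 without HT7 library 2 to 0.15 without NT7 library 3, so its sign changed.

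**Figure D2:**
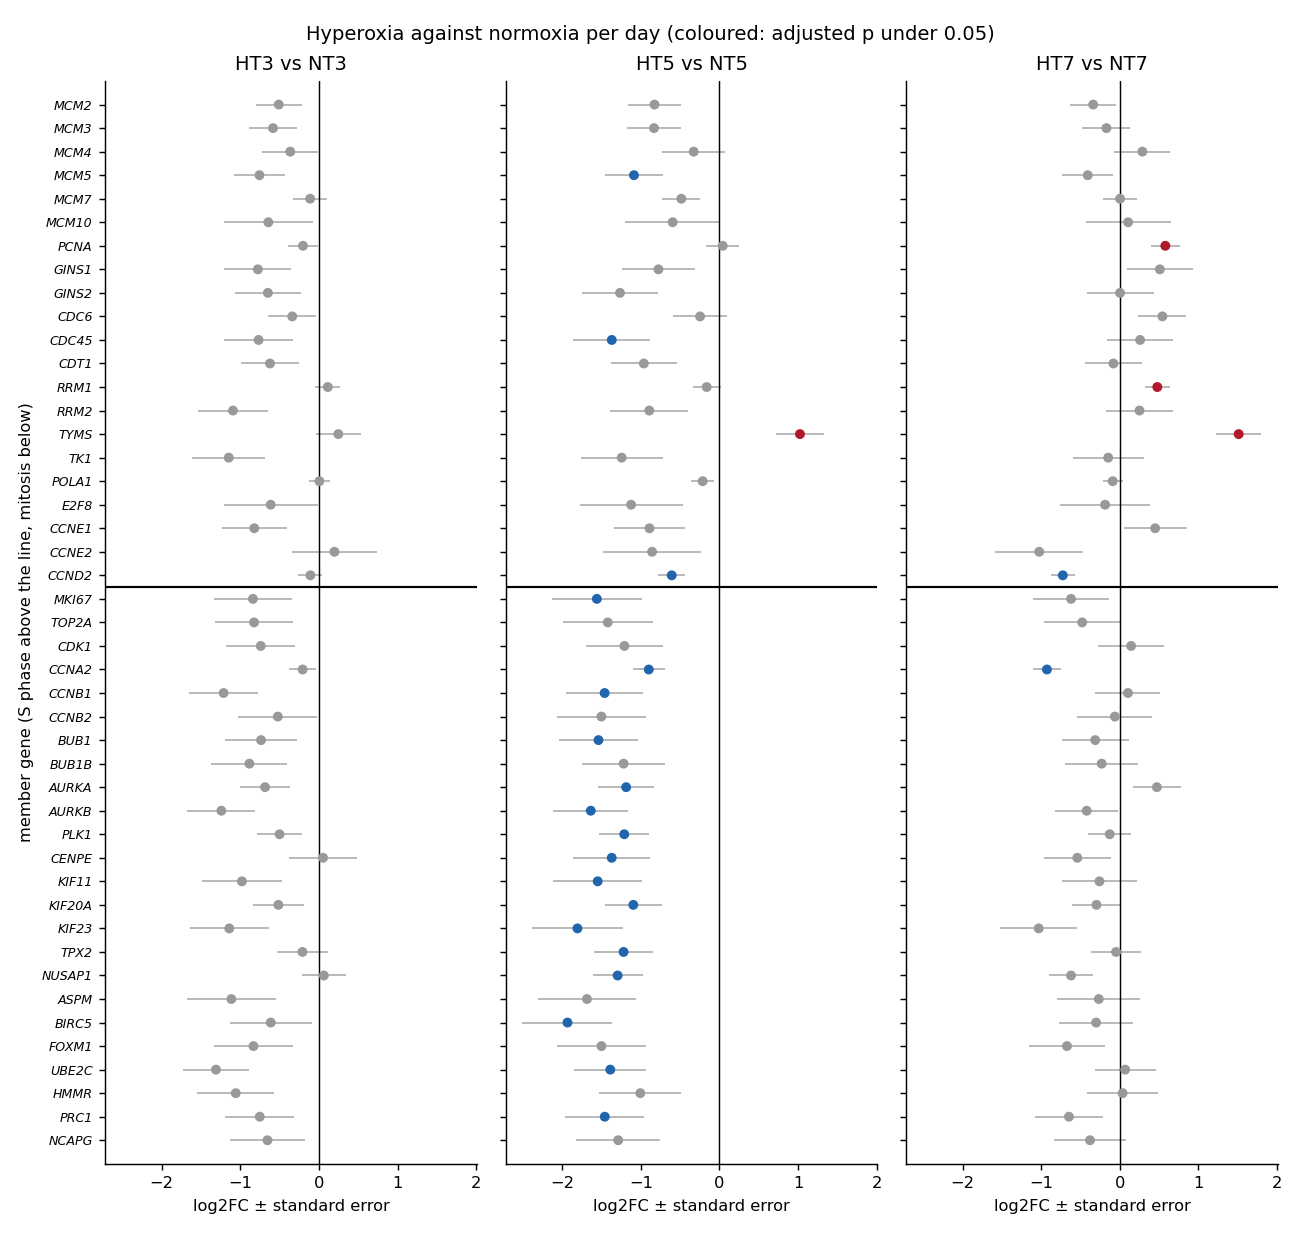
Log2FC of hyperoxia over normoxia with its standard error (x axis) for each of the 45 members (y axis, S phase above the line, mitosis below) on days 3, 5 and 7. Members with an edgeR adjusted p under 0.05 are blue where lower and red where higher. No member is coloured on day 3, 16 mitotic and 4 S-phase members are on day 5, and 1 mitotic and 4 S-phase members are on day 7.

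Among the genes of replication licensing and the helicase, all 11 members had a log2FC below 0 on days 3 and 5, and 7 of 11 lay above 0 on day 7. MCM5 is a subunit of the MCM2-7 helicase that unwinds DNA ahead of the fork. Its CPM were 27.7, 22.7 and 22.9 in HT3 against 32.7, 32.6 and 58.7 in NT3, and 42.8 and 19.9 in HT5 against 73.9, 69.4 and 56.02 in NT5. On both days every hyperoxia library was below every normoxia library. The difference passed the test on day 5 (log2FC -1.09, SE 0.37, edgeR adjusted p = 0.0371) and not on day 3 (log2FC -0.76, SE 0.32, edgeR adjusted p = 0.276). On day 7 HT7 had 28.96, 40.46 and 34.6 CPM and NT7 34.9, 32.4 and 70.6, which overlapped (log2FC -0.41, SE 0.32). The day 5 call was lost without HT5 library 2, NT5 library 1 or NT5 library 2 (log2FC -0.65, -1.0036 and -1.05).

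CDC45, which joins MCM and GINS to make the active helicase, had 4.95 and 1.95 CPM in HT5 and 9.51, 9.04 and 8.01 in NT5. Both HT5 libraries were lower, and the gene fell (log2FC -1.37, SE 0.49, edgeR adjusted p = 0.0462), but the call was lost without HT5 library 2, NT5 library 1, NT5 library 2 or NT5 library 3 (log2FC -0.85, -1.31, -1.35 and -1.44). MCM10, which helps to start the assembled helicase, had 2.31, 1.55 and 2.57 CPM in HT3 against 4.03, 2.72 and 3.30 in NT3, 9.21 and 3.73 against 10.6, 9.04 and 9.56 on day 5 and 4.85, 8.77 and 3.33 against 1.16, 4.65 and 9.84 on day 7. The groups were separate on day 3 only, and the log2FC of -0.64, -0.59 and 0.11 had SEs of 0.57, 0.61 and 0.54. NT7 library 1 had the lowest MCM10 of all libraries, and NT7 library 3 had more than any HT7 library. The other helicase subunits MCM2, MCM3, MCM4 and MCM7, the loaders CDC6 and CDT1 and the GINS subunits GINS1 and GINS2 had log2FC between -1.26 and -0.25 on day 5, with GINS2 lowest, and none passed the test.

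The enzymes of deoxynucleotide supply did not share a direction. RRM2, the S-phase subunit of ribonucleotide reductase, had 8.22, 6.20 and 6.48 CPM in HT3 against 16.02, 12.6 and 16.04 in NT3, with every HT3 library lower (log2FC -1.09, SE 0.45, edgeR adjusted p = 0.254). On day 5 its values were 32.52 and 9.14 in HT5 and 49.4, 34.8 and 31.4 in NT5, and on day 7 they were 20.1, 36.46 and 21.51 in HT7 and 10.53, 18.9 and 36.1 in NT7. The groups overlapped on both of these days (log2FC -0.89 and 0.25, SE 0.49 and 0.43). TK1, the thymidine kinase of the salvage route, had 5.03, 5.26 and 6.71 CPM in HT3 and 14.7, 9.62 and 13.4 in NT3. On day 5 it had 21.1 and 5.41 in HT5 and 36.7, 31.3 and 25.7 in NT5. HT lay below NT on both days without passing the test (log2FC -1.15 and -1.24, edgeR adjusted p = 0.251 and 0.0811). On day 5 both were called without HT5 library 1, at a log2FC of -2.07 for RRM2 and -2.53 for TK1, and TK1 also by DESeq2 (DESeq2 adjusted p = 0.034).

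TYMS had the highest log2FC of all members on each of the 3 days. It encodes thymidylate synthase, which makes the thymidine nucleotide anew. On day 3 it had 19.8, 10.2 and 13.1 CPM in HT3 and 10.9, 10.8 and 14.7 in NT3, which overlapped (log2FC 0.25, SE 0.28, edgeR adjusted p = 0.735). On day 5 it rose to 36.1 and 49.3 in HT5 from 22.1, 21.00 and 19.9 in NT5 (log2FC 1.02, SE 0.30, edgeR adjusted p = 0.0195), and on day 7 to 39.6, 35.6 and 51.9 in HT7 from 11.48, 10.8 and 22.2 in NT7 (log2FC 1.51, SE 0.28, edgeR adjusted p = 0.00055). Every hyperoxia library of days 5 and 7 was above every normoxia library of its day, HT5 library 2 included, where nearly all other members were low. The day 7 rise held in all 6 fits that leave out 1 library, with log2FC from 1.33 to 1.93. The day 5 rise lost its call without HT5 library 2 or NT5 library 3 (log2FC 0.76 and 0.99). The rabbit entry lies on chromosome 9 at 61683917-61695471, minus strand, and overlaps the end of ENOSF1 on the other strand, whose log2FC was 0.52, 0.13 and 0.04 on the 3 days (edgeR adjusted p = 0.455, 0.799 and 0.928). No source used here says whether the counting used strand. CDC45, TK1, CCNB2 and PLK1 also overlap an entry on the other strand (UFD1, SYNGR2, MYO1E and ERN2). MCM3 and BUB1B overlap one on the same strand (IL17F and CCDC9B).

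RRM1, the large subunit of ribonucleotide reductase, which cells keep through the cycle, had 67.3, 86.1 and 68.9 CPM in HT7 and 45.4, 44.9 and 69.3 in NT7. It rose (log2FC 0.48, SE 0.16, edgeR adjusted p = 0.0214), although NT7 library 3 overlapped the HT7 range, and the call was lost without HT7 library 2, NT7 library 1 or NT7 library 2 (log2FC 0.36, 0.37 and 0.37). PCNA, the clamp that holds polymerases on DNA, lies on chromosome 4 at 11721717-11726268, minus strand. It had 74.6, 51.1 and 71.9 CPM in HT3 and 69.2, 67.1 and 91.4 in NT3, and 126 and 128 in HT5 and 124, 120.4 and 126 in NT5, where the groups overlapped (log2FC -0.20 and 0.04). On day 7 it had 125, 143 and 119.7 in HT7 against 67.53, 76.2 and 116 in NT7, each HT7 library above each NT7 library, and it rose (log2FC 0.58, SE 0.19, edgeR adjusted p = 0.0196). This call was lost without HT7 library 2, NT7 library 1 or NT7 library 2, with log2FC of 0.51, 0.43 and 0.49. POLA1, the catalytic subunit of DNA polymerase alpha, had 39.2 and 42.3 CPM in HT5 and 51.50, 45.3 and 44.9 in NT5, a small difference that did not pass the test (log2FC -0.21, SE 0.15).

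CCND2, cyclin D2, which acts in G1 with CDK4 and CDK6 upstream of E2F, was the S-phase member that fell on both later days. On day 3 HT3 had 162, 157 and 149 CPM and NT3 156, 177 and 171, which overlapped (log2FC -0.11, SE 0.15, edgeR adjusted p = 0.786). On day 5 HT5 had 162 and 94.6 and NT5 199, 210.3 and 176 (log2FC -0.61, SE 0.17, edgeR adjusted p = 0.0169), and on day 7 HT7 had 98.3, 105 and 102 and NT7 151, 160.01 and 193 (log2FC -0.72, SE 0.15, edgeR adjusted p = 0.00145). The 3 HT7 libraries lay within 98.3 to 105 CPM, and HT5 library 2 was near them while HT5 library 1 was near normoxia. The day 7 fall held in all 6 fits that leave out 1 library, and the day 5 fall was lost without HT5 library 2 or NT5 library 2 (log2FC -0.29 and -0.54) and in a fit to HT5 and NT5 alone (log2FC -0.60, edgeR adjusted p = 0.121). CCNE2, cyclin E2, had 6.92, 9.42 and 2.68 CPM in HT3 against 4.76, 5.09 and 6.77 in NT3 and 7.15 and 1.73 in HT5 against 5.94, 8.34 and 9.61 in NT5. On day 7 it had 2.13, 5.26 and 2.15 in HT7 against 3.76, 4.99 and 10.6 in NT7. Its groups overlapped on each day (log2FC 0.20, -0.86 and -1.03, SE 0.54, 0.62 and 0.56). The related cyclin CCNE1 and the repressor E2F8 were not called on any day, with log2FC of -0.89 and -1.12 on day 5. CCNE2, CCNE1 and E2F8 were called on day 5 without HT5 library 1 (log2FC -2.20, -1.63 and -2.54), and CCNE2 on day 7 without HT7 library 2 (log2FC -1.58).

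**Figure D3:**
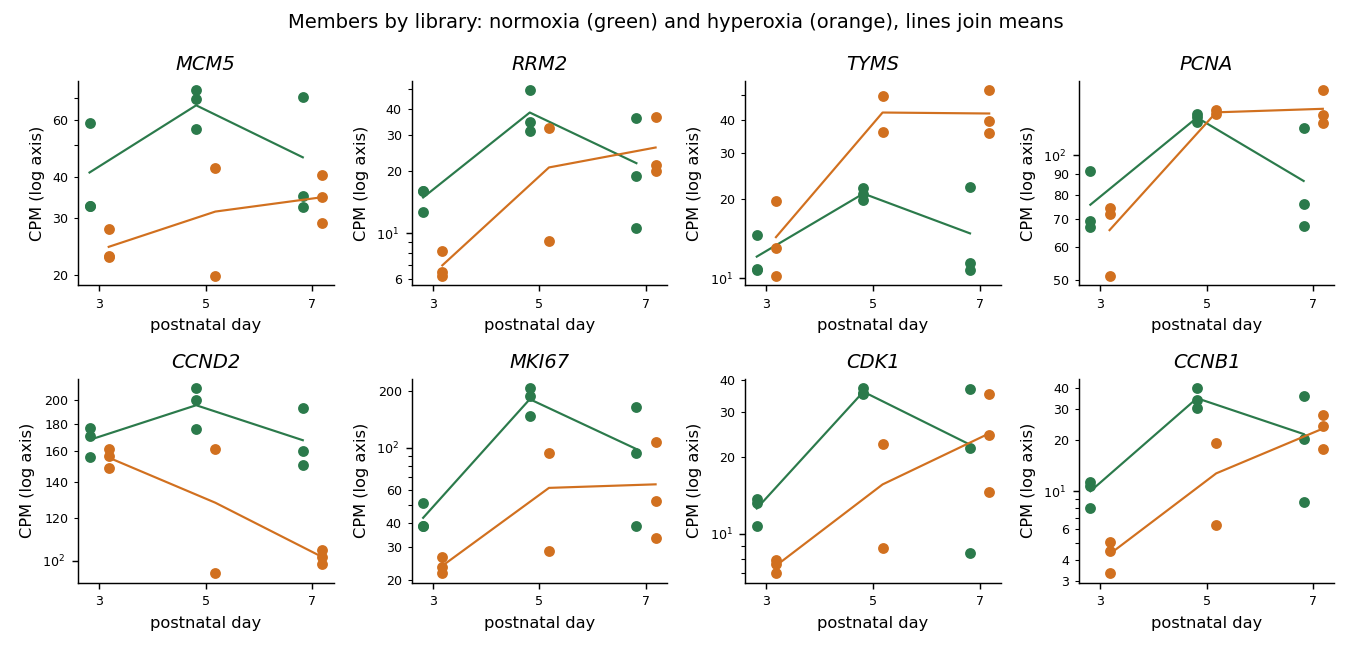
CPM of 8 members (log y axis) by postnatal day (x axis) in each library, with normoxia in green, hyperoxia in orange and lines joining the group means. TYMS in hyperoxia stands above normoxia on days 5 and 7, CCND2 stands below it, and MKI67, CDK1 and CCNB1 in normoxia peak on day 5.

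Among the mitotic kinases and cyclins, all 7 members had a log2FC below 0 on days 3 and 5, and 5 of them fell on day 5. CDK1, the kinase that drives entry into mitosis, had 7.87, 7.64 and 7.002 CPM in HT3 against 13.2, 10.7 and 13.7 in NT3 and 22.4 and 8.77 in HT5 against 35.1, 35.45 and 37.1 in NT5. Hyperoxia was lower in every library on both days, but neither difference passed the test (log2FC -0.74 and -1.21, edgeR adjusted p = 0.445 and 0.0731). On day 7 HT7 had 14.54, 35.1 and 24.4 and NT7 8.41, 21.6 and 36.9, with overlap (log2FC 0.14, SE 0.42). The day 5 difference was called without HT5 library 1 (log2FC -2.03) and by DESeq2 (DESeq2 adjusted p = 0.029).

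CCNB1, cyclin B1, the partner of CDK1, lies on chromosome 11 at 85363420-85371305, plus strand. Its CPM were 4.495, 5.10 and 3.33 in HT3 and 11.3, 8.01 and 10.8 in NT3, and 19.04 and 6.38 in HT5 and 39.9, 33.9 and 30.6 in NT5. Both days showed HT below NT without overlap, with a log2FC of -1.21 (SE 0.44, edgeR adjusted p = 0.205) on day 3 and CCNB1 fell on day 5 (log2FC -1.46, SE 0.49, edgeR adjusted p = 0.0342). On day 7 the values were 17.7, 27.9 and 23.97 in HT7 and 8.68, 20.2 and 35.7 in NT7, and the HT7 libraries lay inside the NT7 range (log2FC 0.10, SE 0.41). The day 5 call was lost without HT5 library 2, NT5 library 1, NT5 library 2 or NT5 library 3 (log2FC -0.89, -1.35, -1.47 and -1.54).

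AURKB, the kinase of the chromosomal passenger complex, had 1.60, 2.44 and 2.63 CPM in HT3 against 6.22, 3.63 and 5.97 in NT3, with no overlap (log2FC -1.24, edgeR adjusted p = 0.18). On day 5 it fell to 8.18 and 3.52 in HT5 from 22.54, 18.2 and 13.54 in NT5 (log2FC -1.64, SE 0.48, edgeR adjusted p = 0.0177). On day 7 HT7 had 5.999, 10.3 and 7.12 and NT7 4.44, 12.9 and 13.96, which overlapped (log2FC -0.42, SE 0.40). PLK1, the Polo kinase of centrosome maturation and mitotic exit, had 6.68, 8.92 and 6.24 CPM in HT3 and 11.8, 10.3 and 8.82 in NT3, where 1 HT3 library overlapped. It fell on day 5, from 26.2, 25.3 and 24.49 in NT5 to 13.6 and 8.33 in HT5 (log2FC -1.21, SE 0.32, edgeR adjusted p = 0.011), and had 13.6, 16.8 and 16.55 in HT7 and 8.95, 19.3 and 22.99 in NT7 on day 7 (log2FC -0.13). AURKA, the spindle pole kinase, also fell on day 5 (log2FC -1.19, SE 0.35, edgeR adjusted p = 0.020) and CCNB2, cyclin B2, did not pass the test (log2FC -1.50, edgeR adjusted p = 0.0552). Without HT5 library 2 the falls of AURKB, PLK1 and AURKA lost their call (log2FC -1.16, -0.91 and -0.82), as did that of AURKA without NT5 library 1 (-1.03), and CCNB2 was called without HT5 library 1 (log2FC -2.4996) and by DESeq2 (DESeq2 adjusted p = 0.016).

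The entry for CCNA2, cyclin A2, stood apart from the other mitotic members. Its CPM were 35.49, 34.4 and 34.49 in HT3 and 36.2, 41.02 and 43.4 in NT3, 33.48 and 24.3 in HT5 and 48.2, 55.8 and 57.4 in NT5, and 19.8, 33.4 and 23.6 in HT7 and 40.46, 53.7 and 51.8 in NT7. Hyperoxia was lower in every library on all 3 days, and the entry fell on day 5 (log2FC -0.90, SE 0.20, edgeR adjusted p = 0.00452) and on day 7 (log2FC -0.93, SE 0.18, edgeR adjusted p = 0.00067). On the table this locus of chromosome 15, at 97274110-97279792 on the minus strand, has the same counts as its neighbour BBS7, a gene of ciliary transport, so the reads of cyclin A2 and BBS7 cannot be told apart. From NT3 to NT5 the entry differed by a log2FC of 0.42, the smallest of the mitotic members. The day 5 call was lost without HT5 library 2 (log2FC -0.70), and the day 7 call held in all 6 fits without 1 library.

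The 4 members of chromosome structure and the passenger complex had a median log2FC of -1.49 on day 5, and 2 of them fell. MKI67, which encodes the proliferation antigen Ki-67, had 21.6, 26.3 and 23.3 CPM in HT3 against 38.3, 38.50 and 50.9 in NT3, with no overlap (log2FC -0.84, edgeR adjusted p = 0.445). On day 5 it had 94.1 and 28.4 in HT5 against 206, 186 and 147 in NT5 and fell, just inside the threshold (log2FC -1.56, SE 0.57, edgeR adjusted p = 0.0499). On day 7 HT7 had 33.1, 107 and 51.9 and NT7 38.6, 93.1 and 163, and the groups overlapped (log2FC -0.62, SE 0.49). TOP2A, the topoisomerase that untangles sister chromosomes, had 22.4, 29.4 and 22.7 CPM in HT3 and 42.4, 34.97 and 54.9 in NT3, and 95.2 and 30.7 in HT5 and 169.95, 167 and 167 in NT5. It was lower in every hyperoxia library of these days without passing the test on day 5 (log2FC -1.42, SE 0.57, edgeR adjusted p = 0.0707). On day 7 it had 38.99, 114 and 52.8 in HT7 and 32.8, 95.1 and 158 in NT7, which overlapped. BIRC5, survivin, of the passenger complex, fell on day 5 from 5.21, 2.67 and 4.55 to 1.72 and 0.487 CPM (log2FC -1.93, SE 0.57, edgeR adjusted p = 0.0193), at counts as low as 9 in a library. MKI67 lost its call without HT5 library 2, NT5 library 1, NT5 library 2 or NT5 library 3 (log2FC -0.95, -1.45, -1.52 and -1.68), with no filter on low counts (edgeR adjusted p = 0.051) and in a fit to HT5 and NT5 alone (edgeR adjusted p = 0.068). BIRC5 lost its call without HT5 library 2 (log2FC -1.28) and in the fit to HT5 and NT5 alone (edgeR adjusted p = 0.071). TOP2A was called without HT5 library 1 (log2FC -2.45) and by DESeq2 (DESeq2 adjusted p = 0.045).

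Of the 9 spindle motors and spindle proteins, 7 fell on day 5. KIF23, a motor of the central spindle needed for cytokinesis, had 11.1, 9.91 and 9.57 CPM in HT3 and 20.9, 24.04 and 22.4 in NT3, and fell from 60.6, 53.7 and 43.05 in NT5 to 24.6 and 5.57 in HT5 (log2FC -1.81, SE 0.58, edgeR adjusted p = 0.0287). On day 7 it had 7.96, 28.00 and 13.7 in HT7 and 15.9, 34.4 and 51.02 in NT7, lower on average but overlapping (log2FC -1.03, edgeR adjusted p = 0.0985). HT3 was below NT3 in every library, with a log2FC of -1.14 (edgeR adjusted p = 0.291). NUSAP1, a protein that bundles spindle microtubules, was 1 of the 2 mitotic members with no lower value on day 3, with 23.1, 18.7 and 21.4 CPM in HT3 and 23.53, 15.97 and 21.05 in NT3 (log2FC 0.06). It fell on day 5 from 58.8, 45.1 and 60.8 in NT5 to 27.8 and 17.04 in HT5 (log2FC -1.29, SE 0.32, edgeR adjusted p = 0.00752), and on day 7 it had 19.7, 26.49 and 28.2 in HT7 and 22.01, 38.1 and 54.3 in NT7 (log2FC -0.62, edgeR adjusted p = 0.0763). The NUSAP1 values of HT3, HT5 and HT7 overlapped, whereas every NT5 library was above every NT3 library. KIF11, KIF20A, CENPE, TPX2 and PRC1 also fell on day 5, with log2FC from -1.55 to -1.10, and ASPM and HMMR did not pass the test. Of the 2 kinases of the spindle checkpoint, BUB1 fell (log2FC -1.54, SE 0.50, edgeR adjusted p = 0.0305) and BUB1B did not pass (log2FC -1.22, edgeR adjusted p = 0.0927). The day 5 calls were lost for KIF23 without HT5 library 2, NT5 library 1 or NT5 library 2 (log2FC -1.11, -1.69 and -1.78), for NUSAP1 without HT5 library 2 (log2FC -0.9978) and for BUB1 without HT5 library 2, NT5 library 1 or NT5 library 2 (log2FC -0.95, -1.39 and -1.52). On day 7 KIF23 was called without HT7 library 2 or NT7 library 1 (log2FC -1.63 and -1.37) and NUSAP1 without NT7 library 1 (log2FC -0.90), and on day 5 BUB1B was called without HT5 library 1 (log2FC -2.26) and by DESeq2 (DESeq2 adjusted p = 0.044).

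FOXM1, the transcription factor of the late cell cycle genes, had 6.80, 8.58 and 6.07 CPM in HT3 against 12.7, 13.00 and 12.6 in NT3, and 19.7 and 4.17 in HT5 against 37.1, 33.1 and 30.6 in NT5. HT was below NT in every library on both days, and neither difference passed (log2FC -0.83 and -1.50, edgeR adjusted p = 0.451 and 0.057). On day 7 it had 7.27, 17.4 and 10.8 in HT7 and 7.38, 18.8 and 30.2 in NT7, which overlapped (log2FC -0.67, SE 0.49). UBE2C, the ubiquitin-conjugating enzyme that serves the anaphase-promoting complex, had the lowest log2FC of all members on day 3. It had 3.49, 3.21 and 3.79 CPM in HT3 against 9.58, 8.47 and 8.02 in NT3 (log2FC -1.31, SE 0.42, edgeR adjusted p = 0.151). All HT3 libraries were under 4 CPM and all NT3 libraries over 8 CPM, although edgeR did not call the gene. It fell on day 5 from 40.2, 27.9 and 27.7 in NT5 to 18.98 and 5.57 in HT5 (log2FC -1.39, SE 0.46, edgeR adjusted p = 0.0315), and on day 7 it had 16.2, 23.8 and 17.6 in HT7 and 8.82, 18.01 and 28.04 in NT7 (log2FC 0.07). The day 5 call of UBE2C was lost without HT5 library 2 or NT5 library 1 (log2FC -0.77 and -1.19), and FOXM1 was called without HT5 library 1 (log2FC -3.01) and by DESeq2 (DESeq2 adjusted p = 0.016).

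**Figure D4:**
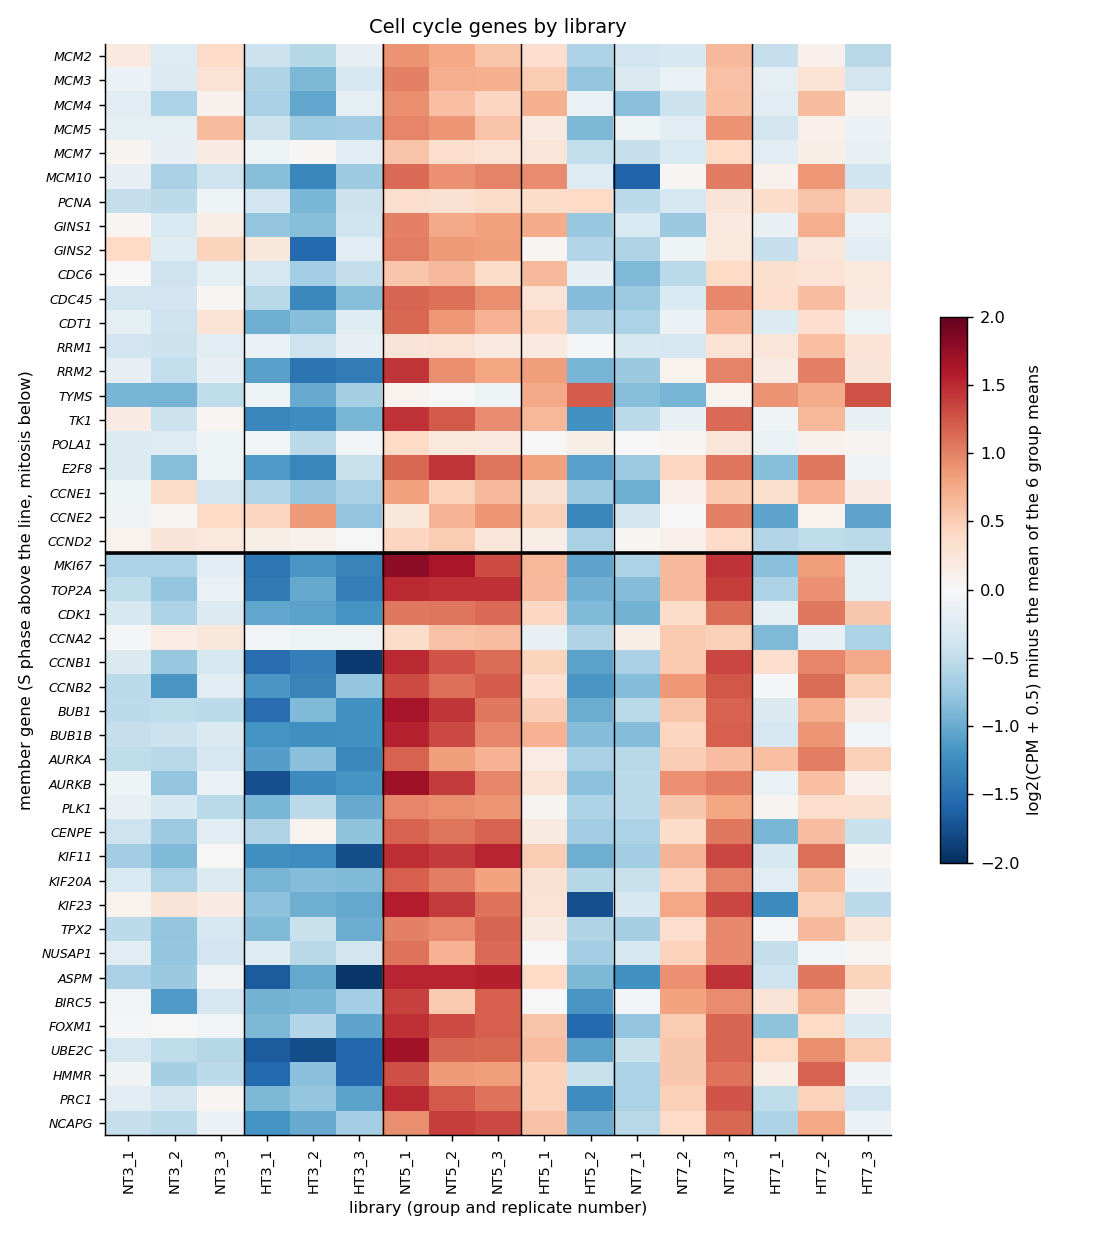
Level of each of the 45 members (rows, S phase above the line, mitosis below) in each of the 17 libraries (columns, grouped by day and oxygen), as log2(CPM + 0.5) minus the mean of the 6 group means, with red above and blue below that mean. The 3 NT5 columns are red and the 3 HT3 columns blue for nearly all members, and the columns of HT5, HT7 and NT7 differ within their group.

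In normoxia the members were highest on day 5. The NT5 mean was above the NT3 mean for all 45, and in 42 of them every NT5 library was above every NT3 library, where 7.44% of all genes tested showed this. The median log2FC from NT3 to NT5 was 1.65 (3.13-fold) over the mitotic and 0.76 over the S-phase members, with MKI67 highest at 2.08. With edgeR's quasi-likelihood test over all 6 groups no member and no other gene had an adjusted p under 0.05, and 0.0% of all genes were called. At an unadjusted p under 0.05 there were 40 of the 45 members and 5.64% of all genes. DESeq2 called 17 members, all higher, where it called 0.441% of all genes higher. A fit to the 2 groups alone called 28 members, all higher, where it called 0.789% of all genes higher. The step from NT5 to NT7 gave no call either (0.0% of all genes), with all 45 members below 0 and a median log2FC of -0.71 over the mitotic ones. At an unadjusted p under 0.05 there were 13 members and 4.45% of all genes in this step, and 16 members and 6.27% of all genes between NT3 and NT7. No member was called from NT3 to NT7 (0.0% of all genes), with a median log2FC of 0.92 over the mitotic members.

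In hyperoxia the mean of 42 of the 45 members was lowest on day 3, and the other 3, CCNA2, CCND2 and CCNE2, had their highest mean on that day. From HT3 to HT5, 7 members rose, PCNA, RRM2 and TYMS of S phase and CCNB1, AURKB, UBE2C and HMMR of mitosis, where 11.5% of all genes rose and 11.2% fell. Leaving out 1 of the 3 HT3 libraries gave 3 or 4 calls, where 13.6% to 20.5% of all genes were called. With HT5 library 1 or 2 left out the group had only 1 library, so counts are not set out for those fits here. A fit to the 2 groups alone called 2 members, both higher, where it called 1.24% of all genes higher. DESeq2 called 13, all higher, where it called 13.6% of all genes higher. From HT3 to HT7, 8 S-phase and 17 mitotic members rose, where 22.3% of all genes rose. CCND2 fell (log2FC -0.62, SE 0.15, edgeR adjusted p = 0.00489), where 22.0% of all genes fell. In 30 of the 45 members all HT7 libraries were above all HT3 libraries, as in 25.9% of all genes. The median log2FC was 1.52 over the mitotic and 0.80 over the S-phase members, and 4 mitotic members were DEGs, where 3.52% of all genes were.

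These 4 were UBE2C (log2FC 2.45, SE 0.42, edgeR adjusted p = 0.000383), CCNB1 (log2FC 2.42, SE 0.45, edgeR adjusted p = 0.000619), ASPM (log2FC 2.09, SE 0.57, edgeR adjusted p = 0.00811) and HMMR (log2FC 2.08, SE 0.49, edgeR adjusted p = 0.00322). ASPM acts at the spindle poles and HMMR in spindle assembly. The number of DEGs was 2 without HT3 library 3 or HT7 library 2 and 8 without HT7 library 1, where 3.91%, 5.0% and 2.7% of all genes were DEGs. The step from HT5 to HT7 gave no member call, where 0.289% of all genes rose and 1.16% fell, and 1 member and 18.6% of all genes had an unadjusted p under 0.05. Without HT5 library 2 it gave 1 call, a fall, where 2.03% of all genes were called lower. Every step between days shares its HT or NT libraries with the contrasts of those days.

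The change of the hyperoxia effect between days was tested as a difference of differences. Between days 3 and 7, PCNA (0.78, SE 0.27, edgeR adjusted p = 0.0494) and TYMS (1.27, SE 0.40, edgeR adjusted p = 0.0366) had a higher log2FC on day 7, where 9.52% of all genes did and 11.0% had a lower one. The call was lost in 10 of the 12 fits without 1 library for PCNA, with values from 0.63 to 1.05, and in 8 of the 12 for TYMS, with values from 1.07 to 1.68. Both calls were also lost in a fit of only the groups compared (edgeR adjusted p = 0.082 for PCNA and 0.057 for TYMS), and that of PCNA with no filter on low counts (edgeR adjusted p = 0.051) and with 1 entry per locus (edgeR adjusted p = 0.054). Without NT7 library 3, 6 S-phase members were called, all higher, where 7.05% of all genes were called higher, and the 11 other omissions gave from 0 to 2. No mitotic member was called at an adjusted p under 0.05, although 4 had an unadjusted p under 0.05, as did 6 S-phase members and 34.9% of all genes. DESeq2 called 3 mitotic members, 2 with a higher and 1 with a lower value on day 7, where it called 12.3% of all genes higher and 14.2% lower. UBE2C had a difference of 1.38 (SE 0.57, edgeR adjusted p = 0.10) and CCNB1 of 1.32 (SE 0.61, edgeR adjusted p = 0.136), and both were called without NT7 library 3, at 1.83 and 1.89. Without HT7 library 2, and likewise without NT7 library 1, 1 mitotic member was called, with a lower value on day 7, where 14.9% and 9.84% of all genes were called lower. The replicate block gave 2 mitotic calls, with no share of all genes at hand. Between days 5 and 7 no gene of any kind was called (0.0%), so the smaller distance of the mitotic members on day 7 was not shown to differ from that on day 5. At an unadjusted p under 0.05 this difference had 3 S-phase and 6 mitotic members and 8.56% of all genes, and DESeq2 called none of the members.

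The regulators upstream of the members were taken from a further list of CDK inhibitors and of genes of the RB and E2F pathway, 23 of which were tested. On day 3 1 rose, where 0.517% of all genes rose. On day 5 4 rose and 3 fell, where 15.9% of all genes rose and 15.4% fell. On day 7 6 rose and 6 fell, where 23.7% of all genes rose and as many fell. CDKN1A, the p21 inhibitor of cyclin-dependent kinases, was the 1 that rose on day 3. Its CPM were 106, 97.1 and 158 in HT3 against 16.4, 22.7 and 23.1 in NT3 (log2FC 2.54, SE 0.34, edgeR adjusted p = 0.00177). On day 5 they were 677 and 1539.6 in HT5 against 34.4, 23.04 and 21.7 in NT5 (log2FC 5.39, SE 0.39, edgeR adjusted p = 2.24e-06), and on day 7 1012, 1058 and 1868 in HT7 against 23.9, 26.4 and 36.01 in NT7 (log2FC 5.51, SE 0.38, edgeR adjusted p = 3.55e-07). No hyperoxia library overlapped normoxia on any day. Within HT5 the library with more CDKN1A, library 2, was the one with the lower members, and within HT7 library 2, the highest on the members, had about as much CDKN1A as library 1. HT7 library 3 had the most CDKN1A of all libraries. Its level was above that of HT7 library 1 on the mitotic (0.04 against -0.30) and the S-phase members (-0.10 against -0.14).

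The CDK inhibitors CDKN1B and CDKN2C moved the other way. CDKN1B, the p27 inhibitor, had 52.05 and 48.6 CPM in HT5 against 91.9, 105 and 103 in NT5 and 37.7, 44.9 and 32.4 in HT7 against 105, 128 and 112 in NT7. Each hyperoxia library was lower, and it fell on day 5 (log2FC -0.99, edgeR adjusted p = 0.000595) and on day 7 (log2FC -1.58, edgeR adjusted p = 2.57e-06). CDKN2C, the p18 inhibitor of CDK4 and CDK6, fell on day 5 from 43.2, 35.8 and 38.8 to 14.4 and 6.11 CPM (log2FC -1.94, SE 0.53, edgeR adjusted p = 0.0132). The CDKN2C call was lost without HT5 library 2 (log2FC -1.46), while the calls of CDKN1A and CDKN1B held in every fit without 1 library.

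Of the kinases of G1, CDK6 fell on day 5, from 208, 234 and 216 CPM in NT5 to 127 and 115 in HT5 (log2FC -0.85, SE 0.18, edgeR adjusted p = 0.00287), and CDK4 rose on day 7, from 88.9, 86.6 and 102 in NT7 to 147, 121 and 139 in HT7 (log2FC 0.56, SE 0.12, edgeR adjusted p = 0.00157). On day 7 CDK6 had 72.9 to 116 CPM in HT7 and 143 to 185 in NT7. On day 5 CDK4 had 129 to 134 in HT5 and 86.6 to 104 in NT5, so both genes were also separate on the other later day. The repressor E2F6 rose on day 5 (log2FC 0.52, SE 0.13, edgeR adjusted p = 0.00976). On day 7 E2F6 had 264 to 326 CPM in HT7 and 198 to 212 in NT7. Without HT5 library 2 the day 5 calls of CDK6 and E2F6 were lost (log2FC -0.80 and 0.25). MYC, a driver of cell growth, rose on day 7 from 42.9, 47.9 and 37.3 in NT7 to 144, 95.2 and 173 in HT7 (log2FC 1.69, SE 0.27, edgeR adjusted p = 0.000155). MYCN, its relative of embryonic tissues, fell on day 7, from 3.14, 3.04 and 12.3 CPM in NT7 to 0.0577, 0.605 and 0.154 in HT7 (log2FC -4.51, SE 0.82, edgeR adjusted p = 0.000458), and the HT7 values stand for 1, 10 and 3 counts, so that the size of the fall is imprecise. CDKN1A on all 3 days and MYCN on day 7 passed the DEG rule.

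**Figure D5:**
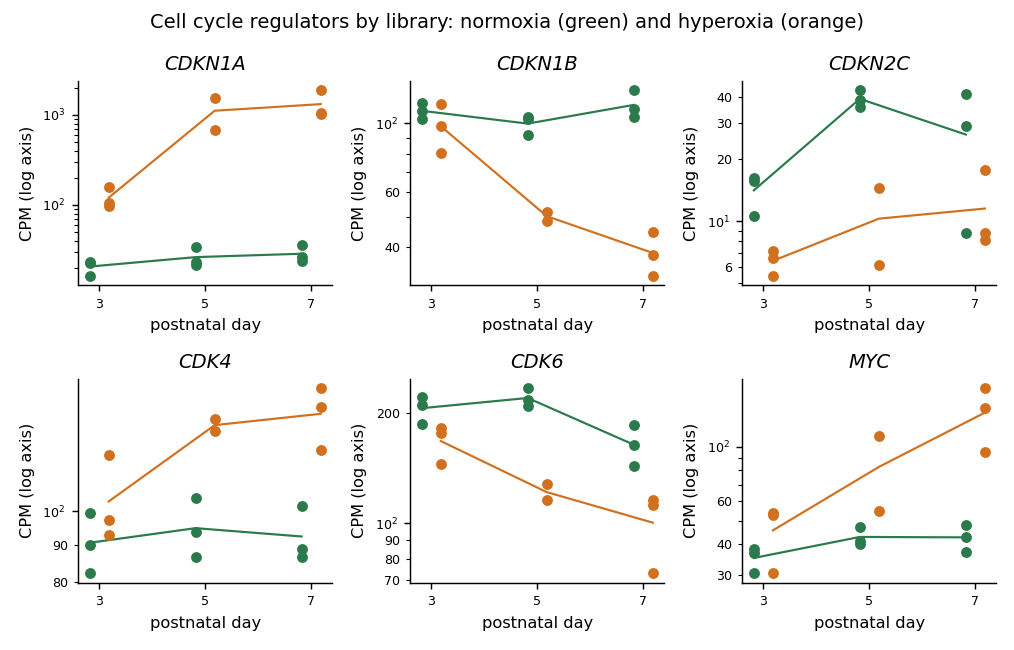
CPM of 6 cell cycle regulators (log y axis) by postnatal day (x axis) in each library, with normoxia in green and hyperoxia in orange. CDKN1A in hyperoxia lies above normoxia on every day, from 97.1 CPM upwards, while CDKN1B and CDK6 lie below it on days 5 and 7.

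Other genes of the same processes were counted on 2 further lists. Of 29 other replication genes tested, none was called on day 3, 3 fell and 2 rose on day 5, and 1 fell and 5 rose on day 7. Of all genes, 15.4% fell and 15.9% rose on day 5, and 23.7% fell and 23.7% rose on day 7. On day 5 the falls were LIG1, the ligase of Okazaki fragments (log2FC -0.76, edgeR adjusted p = 0.0021), GMNN, the geminin brake on CDT1 (log2FC -0.73, edgeR adjusted p = 0.0257), and DUT, the dUTP hydrolase (log2FC -0.78, edgeR adjusted p = 0.0338). The rises were RPA3, a subunit of the single-strand binding complex (log2FC 0.60, edgeR adjusted p = 0.0115), and RFC1, of the clamp loader (log2FC 0.31, edgeR adjusted p = 0.0287). On day 7 RPA3 rose (log2FC 0.77, edgeR adjusted p = 0.000579), as did MCM8, an MCM relative of recombination repair (log2FC 0.92, edgeR adjusted p = 0.0168), the primase subunit PRIM2 (log2FC 0.43, edgeR adjusted p = 0.0295), the origin-firing kinase CDC7 (log2FC 0.47, edgeR adjusted p = 0.0396) and POLD3, of DNA polymerase delta (log2FC 0.38, edgeR adjusted p = 0.0437), and the 1 that fell was DUT again. Each call given here with its value was lost in at least 1 fit without a single library except that of RPA3 on day 7, and that of POLD3 was lost in all 6.

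Of 44 other mitotic genes tested, none was called on day 3, 15 fell and none rose on day 5, and 2 fell and 2 rose on day 7, beside the same shares of all genes. Their median log2FC was -1.10 on day 5, beside -1.40 of the mitotic members, and -0.15 on day 7. The 5 with the smallest p on day 5 were LMNB1, a nuclear lamin (log2FC -1.27, edgeR adjusted p = 0.0078), CDC25B, the phosphatase that activates CDK1 (log2FC -1.37, edgeR adjusted p = 0.00871), PTTG1, the securin (log2FC -0.79, edgeR adjusted p = 0.0109), the spindle protein TROAP (log2FC -1.997, edgeR adjusted p = 0.0127) and the mitotic kinase PBK (log2FC -1.43, edgeR adjusted p = 0.0152). On day 7 CDC25B fell (log2FC -0.82, edgeR adjusted p = 0.0341), as did SMC4, of condensin (log2FC -0.70, edgeR adjusted p = 0.0159), while WEE1, the kinase that restrains CDK1 (log2FC 0.74, edgeR adjusted p = 0.0189), and CKS2, a CDK subunit (log2FC 0.35, edgeR adjusted p = 0.00458), rose. The 5 day 5 calls were lost without HT5 library 2, with log2FC of -0.87 for LMNB1, -0.90 for CDC25B, -0.72 for PTTG1, -1.53 for TROAP and -1.04 for PBK. The day 7 call of CKS2 held in all 6 fits without 1 library, and those of CDC25B, SMC4 and WEE1 did not.

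Markers of other cells in the lung were counted in the same way. Of all genes tested, 0.517% fell and 0.517% rose on day 3, and 15.4% fell and 15.9% rose on day 5. On day 7 23.7% fell and 23.7% rose. Some of the counts below lie near these shares. Of 6 alveolar type 1 markers tested, 4 fell on day 5 and 4 on day 7, and their summed CPM was 5903 to 7074 in NT5 against 2312 to 3956 in HT5, and 6756 to 7605 in NT7 against 1984 to 2635 in HT7. Of 7 endothelial markers, TIE1, a receptor tyrosine kinase, fell on day 3 (log2FC -0.87, SE 0.12, edgeR adjusted p = 0.00316), the only marker of any list called on that day, when the 7 summed to 2964 to 3329 CPM in NT3 and 2576 to 3036 in HT3. On each of the later days 5 fell, and 1 rose on day 5, with 2458 to 2991 CPM in NT5 against 1479 to 1561 in HT5 and 2519 to 3051 in NT7 against 1026 to 1416 in HT7. Of 9 erythroid markers, 2 fell and 1 rose on day 5, and 6 fell and 1 rose on day 7. The 1 that rose was TFRC, the transferrin receptor, which other cells also express (log2FC 1.24 on day 5, edgeR adjusted p = 0.00164, and 2.03 on day 7, edgeR adjusted p = 8.2e-06). With TFRC included the 9 summed to 205 to 285 CPM in NT5 against 299 to 304 in HT5 and to 237 to 337 in NT7 against 460 to 472 in HT7. The 7 alveolar type 2 markers summed to 24752 to 27972 CPM in HT3 against 17481 to 20362 in NT3, with none called. On day 5 they summed to 33083 in HT5 library 1 and 12624 in library 2, beside 12584 to 24813 in NT5, with none called. On day 7 they summed to 29399 in HT7 library 2 and to 13415 and 16232 in libraries 1 and 3, beside 17240 to 23215 in NT7, and 2 fell and 1 rose. HT5 library 1 and HT7 library 2 were also the highest of their groups on the members, whereas NT7 library 3, the highest of NT7 on the members, had the lowest type 2 sum of that group. Of 5 airway markers tested, none was called on days 3 and 5 and 2 rose on day 7, and their sum lay between 47.5 and 83.5 CPM in the 17 libraries. Of 6 B and NK lymphocyte markers tested, none was called on days 3 and 5, and 3 fell on day 7. Together with KLRD1, which was not tested, they summed on day 7 to 1.90 to 4.29 CPM in HT7 against 6.56 to 9.97 in NT7. Skeletal muscle markers were high in HT3 library 2 and HT5 library 1, at 417 and 375 CPM against 57.8 to 115 in the other 15 libraries. The 6 fibroblast markers summed to 5494 to 6269 CPM in NT3 against 4382 to 4704 in HT3, with none called, and to 4524 to 5295 in NT5 against 3228 to 3603 in HT5, where 3 fell. On day 7 they overlapped at 4174 to 5683 in NT7 and 3987 to 4369 in HT7, and 3 fell and 1 rose. The 8 neutrophil markers summed to 326 to 821 CPM in NT3 against 1230 to 1721 in HT3, with none called. They overlapped on day 5 at 172 to 779 in NT5 and 742 to 1107 in HT5, where 2 rose, and on day 7 at 1103 to 1211 in NT7 and 1170 to 3560 in HT7, where 2 rose and 1 fell. The 9 macrophage markers overlapped on day 3, at 935 to 1030 in NT3 and 1012 to 1437 in HT3, with none called. They summed to 859 to 1627 in NT5 against 1707 to 1879 in HT5, where 2 rose, and to 1142 to 1368 in NT7 against 1905 to 2458 in HT7, where 3 rose and 1 fell. Of the 10 thymocyte markers 6 were tested, and the other 4, RAG1, RAG2, DNTT and PTCRA, which define developing thymocytes, were at or near 0, with at most 0.382 CPM in any library. None of the 6 was called on day 3 and CD8B rose on day 5, and on day 7 CD8B rose and CD3D, CD3E and CD4 fell. The summed thymocyte markers lay between 4.65 and 33.7 CPM in the 17 libraries. The part of these cell types in the changes of the members was not tested.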

How the data were processed

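Poly(A) RNA of whole right lung was sequenced paired-end with a stranded kit. The submitters' processing notes name FastQC, STAR 2.7.10a and the rabbit build OryCun2.0; the counting program and its strand setting are not given in the sources used here. The authors deposited raw counts per gene entry, with a human gene name beside all but 44 entries, and these were used without change. The table held 13827 entries at 13313 loci. Some entries name the same locus more than once with the same counts, and coordinates are those of the table. Promoter sequences were not used here.

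Counts were tested in edgeR 4.0.16 (limma 3.58.1, R 4.3.3) with filterByExpr, which left 13142 entries, TMM factors, 1 mean for each of the 6 groups over all 17 libraries, and the quasi-likelihood test with Benjamini-Hochberg adjustment. SEs were taken from the log2FC and its F value, and fold changes used a prior count of 0.125. Library levels used log2 CPM with a prior count of 0.5. Summaries and plots used Python 3.11.15, pandas 2.3.3, numpy 2.4.6 and matplotlib 3.10.9. On simulated counts, the test recovered 57.6% of 66 genes changed by a log2FC of 1 and 91.0% of 67 changed by 2 in the comparison of HT5 with NT5, among 13000 genes. The changed genes were above 1 CPM on average, and noise was drawn independently for each gene. No shift was shared within a library, so these rates do not describe genes that move together. The precision of a value is limited by the 13123731 to 18111086 counts per library and by 2 or 3 libraries per group.

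The members and all lists were chosen with earlier results of these data known. All members could be named. Values in every library were given for members picked by role and, on each day, for the 3 S-phase and 3 mitotic members with the smallest p and the 2 members farthest from the median on its other side; of the other lists, CDKN1A and at most the 5 called genes with the smallest p on a day. CDC45, RRM1, POLA1, BIRC5, E2F3 and the members named without values in every library were added after their values were seen. Deviations from the group means of same-numbered HT3 and NT3 libraries correlated (r = 0.167, 0.124 and 0.176), as did those of NT3 and NT7 (r = 0.173, 0.123 and 0.249). The pairing rule asked for r above 0.1 in each of 3 same-numbered pairs, so these groups were taken as paired in the replicate block. The labels name no pairs, and the main tests used none. HT5 and NT5 had r = 0.247 and 0.130 but only 2 pairs. The other pairs of groups did not meet the rule. The alternatives were DESeq2 1.42.0 (Wald test), RLE factors, no filter on low counts, 1 entry per locus, a fit of only the groups compared, the replicate block, and leaving out each library.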

Additional observations from a re-analysis of the deposited data

Results flagged for a closer look

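The effect of hyperoxia differed between days 3 and 7, by edgeR's quasi-likelihood test of the difference, for 2 of the 45 members and 5 of the 23 regulators tested, where 9.52% of all genes had a higher and 11.0% a lower log2FC on day 7. The members were thus called less often than genes at large, and the regulators about as often. The log2FC of day 7 minus that of day 3 was 0.78 for PCNA (SE 0.27, edgeR adjusted p = 0.0494) and 1.27 for TYMS (SE 0.40, edgeR adjusted p = 0.0366). It was 2.97 for CDKN1A (SE 0.46, edgeR adjusted p = 0.00149), 1.32 for MYC (SE 0.37, edgeR adjusted p = 0.0238) and 0.72 for E2F3 (SE 0.24, edgeR adjusted p = 0.0473), and negative for CDKN1B at -1.42 (SE 0.20, edgeR adjusted p = 0.000768) and for MYCN at -3.88 (SE 1.04, edgeR adjusted p = 0.0185). PCNA lost its call in 10 of the 12 fits without 1 library, TYMS in 8 and E2F3 in 9, and all 3 lost it in a fit of only the groups compared (edgeR adjusted p = 0.082, 0.057 and 0.065). CDKN1A and CDKN1B held their call in all 12 fits without 1 library. MYC lost it in 6 of the 12, without HT3 library 1, HT7 library 1 or 3, NT3 library 1 or 3 or NT7 library 3, with values from 1.10 to 1.53 over the 12. MYCN lost it without HT7 library 1 or 3 or NT7 library 3, with values from -5.11 to -2.87 at 1 to 10 counts in the HT7 libraries. No group had the 4 libraries needed to test for a single library that stands apart.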

How the results depend on the processing

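RLE factors moved none of the counts of members by over 1.5 times. No filter on low counts, and 1 entry per locus, each left 1 S-phase call instead of 2 in the difference between days 7 and 3. DESeq2 called 1 mitotic member on day 3, 8 S-phase members on day 5 (7 lower and 1 higher, where it called 17.9% of all genes lower and 18.2% higher), 3 mitotic members in the difference between days 7 and 3, 17 members from NT3 to NT5 with 1 DEG, and 13 from HT3 to HT5. A fit of only the groups compared called 2 S-phase and 5 mitotic members on day 3, 2 (1 lower and 1 higher) and 9 on day 5, 28 from NT3 to NT5 with 3 DEGs, 2 from HT3 to HT5, and in the difference between days 7 and 3 an S-phase call of 1 member in the other direction. The causes were not tested. For the paired HT3 and NT3 and the paired NT3 and NT7 the replicate block left 0 calls. In the difference between days 7 and 3 the replicate block gave 2 mitotic calls. There HT3 and NT3 met the pairing rule, and HT7 and NT7 did not. The block gave 3 mitotic calls on day 7 and 2 calls from HT3 to HT5, where the samples share only a number. On day 5, where HT5 and NT5 had only 2 pairs, it called FOXM1, CDK1, TOP2A, CCNB2, BUB1B and GINS2 (edgeR adjusted p = 0.021 to 0.042). It moved no other count by over 1.5 times. The share of all genes called with the block is not at hand, so these counts cannot be set against it.

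With each library left out in turn, the day 5 counts ranged from 0 to 14 for S phase (DEGs 0 to 1) and from 0 to 23 for mitosis (DEGs 0 to 7), and the medians from -1.62 to -0.29 and from -2.41 to -0.88. On day 7 the counts ranged from 2 to 6 and from 1 to 3, the S-phase median from -0.16 to 0.54, and the mitotic median from -0.66 to 0.15, above 0 only without NT7 library 3. In the difference between days 7 and 3 they ranged from 0 to 6 and from 0 to 2, from HT3 to HT5 from 3 to 4, from HT5 to HT7 from 0 to 1, and the DEGs from HT3 to HT7 from 2 to 8. Some uncalled log2FC changed sign. On day 3 these were CCNE2 (-0.21 to 0.56), TYMS (-0.054 to 0.44) and NUSAP1 (-0.083 to 0.19). On day 7 they were MCM10 (-0.36 to 0.95), RRM2 (-0.081 to 0.82), TK1 (-0.45 to 0.54), MCM5 (-0.61 to 0.042), TOP2A (-1.05 to 0.10), CDK1 (-0.25 to 0.72), CCNB1 (-0.27 to 0.68), PLK1 (-0.43 to 0.15) and UBE2C (-0.26 to 0.52). For single genes, 613 values under the other settings kept direction and side of the threshold, 25 passed it and 34 no longer did. In the same simulated counts, which had no shift shared within a library, 54.5% to 69.7% of genes changed by a log2FC of 1 were called in the 3 comparisons of HT with NT.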
